A study of Mus musculus with 9 samples.

Results

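The 7 genes described here, of 47480 gene names in the count table, are Spon2, Slc26a1, Abcg4, Acsl6, Btnl10, Sh3tc2 and Trim10. They were chosen because they lie outside the classic red cell markers and had large MP over LSK increases in these same libraries, so their MP over LSK values are given as a description with no test. The choice set no numeric limit and did not name the RNA fraction. The libraries came from bone marrow cells of C57BL/6 mice and fall into 4 groups. They are MP polysomal RNA (3 libraries), MP total RNA (2), LSK polysomal RNA (2) and LSK total RNA (2). The labels call the MP samples progenitors without expanding the letters, and the LSK samples stem cells, the usual name for marrow cells sorted as lineage-negative, Sca-1+ and Kit+. All 4 groups had been treated with cycloheximide (100 ug/ml, 10 min), an inhibitor that freezes elongating ribosomes in place. Total RNA was taken from the lysate ahead of a sucrose gradient and polysomal RNA from gradient fraction 7. No label gives an age or a number of animals, or ties a library to its own animal or sort, so each spread and p-value below measures only how these libraries differ, which may be technical.

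The genes belong to no single pathway. Spon2 encodes the secreted matrix protein spondin 2, also called mindin, which is known from mouse innate immunity for binding integrins and bacterial surfaces. Slc26a1 encodes a membrane exchanger for sulfate and related anions, known from liver and kidney. Abcg4 encodes an ATP-binding cassette transporter related to Abcg1 that moves cholesterol out of cells and is known in mouse marrow from megakaryocyte progenitors. Acsl6 encodes an enzyme that couples long-chain fatty acids, in mouse brain mainly polyunsaturated ones, to coenzyme A. Btnl10 encodes a butyrophilin-like membrane protein of the immunoglobulin superfamily. Sh3tc2 encodes an adaptor of recycling endosomes that binds the small GTPase Rab11 and is known from the myelin-forming Schwann cells of nerves. Trim10, a RING-domain protein of the tripartite motif family, is known from mouse erythroid cell lines, where it is needed for terminal red cell maturation. Bone marrow progenitors of the red cell line take up iron, build heme and a spectrin membrane skeleton, and are controlled by the transcription factors Gata1 and Klf1.

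In GRCm38, with the GENCODE M21 annotation, all 7 are protein-coding genes. Spon2 lies on chromosome 5 (33198184 to 33218455, minus strand), as does Slc26a1 (108669878 to 108675569, minus strand). Acsl6 (54303798 to 54364756, plus strand) and Btnl10 (58917908 to 58927158, plus strand) lie on chromosome 11. Abcg4 is on chromosome 9 (44273188 to 44288615, minus strand) and Trim10 on chromosome 17 (36869574 to 36877833, plus strand). Slc26a1 shares 141 exon bases, 3.48% of its own, with Idua, a lysosomal enzyme gene on the opposite strand. Acsl6 shares 202 exon bases, 2.04% of its own, with the antisense gene Gm12224, which had 0 counts in 7 of the 9 libraries. Whether the counting used strand is not stated in the sources used here, and reads from these overlaps cannot be told apart. Idua had 16.1, 29.9 and 15.1 CPM in MP polysomal RNA and 17.7 and 12.5 CPM in LSK polysomal RNA, and 38.6 and 24.5 CPM in MP total RNA against 55.1 and 24.1 CPM in LSK total RNA, so its groups overlapped where those of Slc26a1 did not.

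Because the 7 genes were high in the same libraries, the bases upstream of their transcription starts are shown where RefSeq windows on GRCm38.p6 were at hand. Of the 7 genes, 4 had windows, 8 in all. The search covered the 250 bases before each start on both strands, with overlapping matches counted. The GATA motif searched was the word AGATAA and its variants TGATAA (first base changed), AGATAG (last base changed) and TGATAG (both changed), whose reverse complements count as well. Windows of 3 of the 4 genes (4 of 8 windows) held it, against 29.8% of 26994 genes and 26.6% of 32817 windows in the RefSeq table. All 4 genes held CACCC, as did 54.5% of genes in the table, and all 4 held the E-box CANNTG, as did 69.3%. The 3 windows below hold the GATA matches, printed 5′ to 3′ on the gene's strand with these matches in capitals.
Btnl10, chr11:58917658-58917907, plus strand: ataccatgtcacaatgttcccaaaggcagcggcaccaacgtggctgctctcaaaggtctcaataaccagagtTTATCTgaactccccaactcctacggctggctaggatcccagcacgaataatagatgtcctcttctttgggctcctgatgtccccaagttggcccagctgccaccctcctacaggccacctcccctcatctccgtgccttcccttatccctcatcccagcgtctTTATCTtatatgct
Slc26a1, chr5:108675366-108675615, minus strand: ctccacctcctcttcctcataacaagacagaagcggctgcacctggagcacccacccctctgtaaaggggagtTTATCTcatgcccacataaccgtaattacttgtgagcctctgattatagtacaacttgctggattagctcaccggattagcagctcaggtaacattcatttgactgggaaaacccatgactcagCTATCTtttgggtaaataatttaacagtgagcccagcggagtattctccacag
Trim10, chr17:36869324-36869573, plus strand: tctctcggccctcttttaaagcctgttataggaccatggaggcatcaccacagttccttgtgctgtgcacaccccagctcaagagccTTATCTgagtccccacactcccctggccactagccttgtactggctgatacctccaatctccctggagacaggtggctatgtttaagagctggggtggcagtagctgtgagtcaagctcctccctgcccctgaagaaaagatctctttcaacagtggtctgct
The first base of the match lies 178 and 14 bases before the Btnl10 start, 177 and 53 before the RefSeq start used for Slc26a1 and 163 before the Trim10 start. That RefSeq start of Slc26a1 lies inside the GENCODE gene, which begins at 108675569 on the minus strand. Both Slc26a1 matches therefore lie within the annotated gene and not upstream of it. A second Btnl10 window overlaps the printed one and holds the nearer of its matches. None of the 3 Acsl6 windows held the GATA letters. A match describes letters in a window and does not show that a factor binds there. Gata1, the gene of the red cell GATA factor, had 359.5, 376 and 299 CPM in MP polysomal RNA against 116 and 124 CPM in LSK polysomal RNA, and 229.7 and 228 CPM in MP total RNA against 54.3 and 45.6 CPM in LSK total RNA. Its log2 changes, 1.53 (adjusted p = 0.0750, SE 0.40) in polysomal and 2.19 (adjusted p = 0.0503, SE 0.44) in total RNA by edgeR's quasi-likelihood test, did not pass.

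In every MP library, each of the 7 genes lay above every LSK library of the same fraction. This held for 7 of 7 genes in both fractions, where 22.8% of the 16426 tested genes did so in total and 15% in polysomal RNA. The genes were chosen on this difference, so nothing is read from the counts. Levels are CPM, counts relative to library size after TMM scaling (a trimmed mean of log ratios between libraries), given in library order 1, 2 and, for MP polysomal RNA, 3. In bulk samples, fewer cells of a type and less RNA per cell cannot be told apart.

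**Figure D1:**
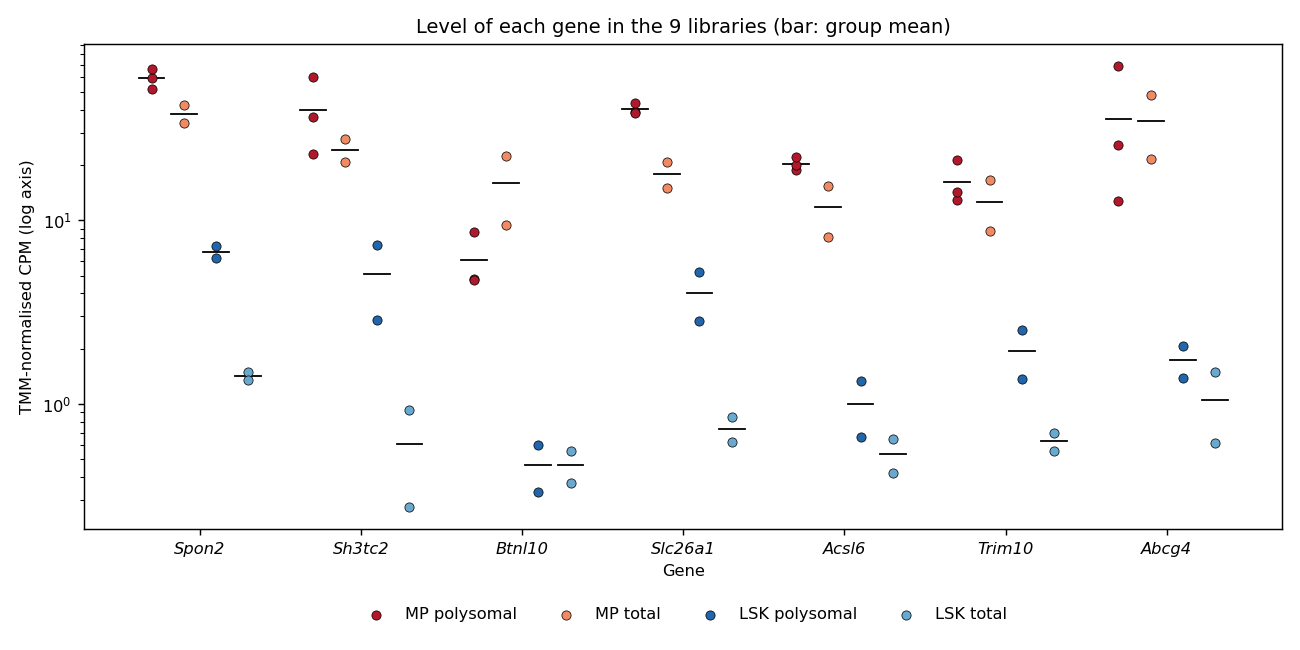
Level of each of the 7 genes in the 9 libraries as TMM-normalised CPM on a log axis. Points are libraries, coloured by group, and bars are group means (n = 3 for MP polysomal RNA and n = 2 for the others). In both fractions all MP points lie above all LSK points, and Abcg4 has the widest spread within MP polysomal RNA, from 12.7 to 69.1 CPM.

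The secreted protein gene Spon2 had the closest replicates of the set in 3 of the 4 groups. Spon2 had 59.9, 51.9 and 66.3 CPM in MP polysomal RNA, against 7.27 and 6.23 CPM in LSK polysomal RNA. Its total RNA values were 33.8 and 42.2 CPM in MP cells, against 1.49 and 1.35 CPM in LSK cells. MP libraries were high in both fractions, and the highest of their levels were in polysomal RNA. The fitted log2 change of MP over LSK was 3.14 (SE 0.52) in polysomal and 4.74 (SE 0.58) in total RNA, and the group means stood 8.80-fold and 26.8-fold apart. Among the 16426 tested genes, ordered from the largest increase, Spon2 was number 509 in polysomal and 51 in total RNA.

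The 2 transporter genes differed in how evenly the MP libraries carried them. Slc26a1 had 38.9, 38.5 and 43.5 CPM in MP polysomal RNA, against 2.82 and 5.23 CPM in LSK polysomal RNA. Total RNA held 15.0 and 20.8 CPM in MP cells, against 0.846 and 0.623 CPM in LSK cells. The 3 MP polysomal libraries differed by at most 1.13-fold, and every MP polysomal library exceeded both MP total libraries. Its log2 change was 3.32 (SE 0.58) in polysomal and 4.60 (SE 0.64) in total RNA. Abcg4 had 12.7, 25.6 and 69.1 CPM in MP polysomal RNA, against 1.39 and 2.08 CPM in LSK polysomal RNA. In total RNA it had 21.6 and 47.9 CPM in MP cells, against 0.613 and 1.50 CPM in LSK cells. The 3 MP polysomal libraries differed 5.44-fold, with library 3 high and library 1 low, and MP total 2 stood above MP total 1. Its log2 change was 4.37 (SE 0.95) in polysomal and 5.04 (SE 1.00) in total RNA. The erythroid transcription factor gene Klf1 was also lowest in MP polysomal 1 and highest in MP polysomal 3 of these 3 libraries, at 16.8, 90.5 and 382 CPM, with 130.1 and 393 CPM in MP total RNA, 1.96 and 29.8 CPM in LSK polysomal RNA and 4.38 and 42.7 CPM in LSK total RNA. Gata1 did not share this order, at 359.5, 376 and 299 CPM. Neither did the sum of the erythroid markers described below, at 13376, 14024 and 11747 CPM. The sum of the megakaryocyte markers did, at 438, 472 and 1086 CPM. A link of Abcg4 to either cell type was not tested.

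The fatty acid enzyme gene Acsl6 was low in LSK cells. Acsl6 had 18.8, 20.1 and 22.2 CPM in MP polysomal RNA, against 1.33 and 0.664 CPM in LSK polysomal RNA. Its total RNA values were 8.13 and 15.5 CPM in MP cells, against 0.642 and 0.424 CPM in LSK cells. The LSK values rest on 40 and 16 counts in polysomal and 22 and 17 counts in total RNA. The 3 MP polysomal libraries differed by at most 1.18-fold and the 2 MP total libraries 1.90-fold. The log2 change was 4.34 (SE 0.68) in polysomal and 4.46 (SE 0.70) in total RNA.

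Btnl10, the butyrophilin-like gene, was the member with more RNA in the total than in the polysomal fraction of MP cells. Btnl10 had 4.82, 4.76 and 8.67 CPM in MP polysomal RNA, against 0.598 and 0.332 CPM in LSK polysomal RNA. Total RNA held 9.39 and 22.4 CPM in MP cells, against 0.554 and 0.374 CPM in LSK cells. In LSK cells it rests on 18 and 8 counts in polysomal and 19 and 15 counts in total RNA, the fewest over both fractions of the set. MP total 2 was the highest library, and MP polysomal 1 and 2 were the lowest of the MP libraries. The log2 change of MP over LSK was 3.69 (SE 0.73) in polysomal and 5.09 (SE 0.80) in total RNA.

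The endosome adaptor gene Sh3tc2, on chromosome 18 (61953075 to 62024402, plus strand), varied less within MP total RNA (1.32-fold) than within its other groups. Sh3tc2 had 23.1, 36.3 and 60.1 CPM in MP polysomal RNA, against 2.86 and 7.35 CPM in LSK polysomal RNA. In total RNA it had 20.8 and 27.6 CPM in MP cells, against 0.933 and 0.274 CPM in LSK cells. LSK total RNA held 32 and 11 counts of it. Among MP polysomal libraries it was highest in library 3 and lowest in library 1, like Abcg4, and the LSK polysomal libraries differed 2.57-fold. Its log2 change was 2.97 (SE 0.79) in polysomal and 5.32 (SE 0.92) in total RNA. It was 3.81 in polysomal RNA without LSK polysomal 2, and in total RNA 6.46 without LSK total 1 and 4.69 without LSK total 2. Trim10 had 12.8, 14.3 and 21.2 CPM in MP polysomal RNA, against 2.52 and 1.37 CPM in LSK polysomal RNA. Its total RNA values were 8.73 and 16.5 CPM in MP cells, against 0.554 and 0.698 CPM in LSK cells. The tripartite motif gene thus overlapped between the 2 fractions in MP cells and did not overlap between populations. Its log2 change was 3.04 (SE 0.64) in polysomal and 4.32 (SE 0.70) in total RNA.

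Over the set, the fitted MP over LSK change had a median of 3.32 in polysomal RNA (from 2.97 to 4.37) and 4.74 in total RNA (from 4.32 to 5.32), where the median of all tested genes was −0.026 and −0.0062. Leaving out 1 library moved other members by over 1.5 times. Without LSK polysomal 1 the polysomal change was 5.05 for Acsl6, 3.68 for Trim10 and 4.31 for Btnl10, and without MP polysomal 3 it was 3.46 for Abcg4. Without MP total 2 the total RNA change was 4.33 for Btnl10 and 4.36 for Abcg4, and without LSK total 2 it was 5.82 for Abcg4. For each gene the 4 groups had the same order by mean level, MP libraries ahead of LSK libraries, except that Btnl10 placed MP total RNA ahead of MP polysomal RNA. Within LSK cells the fractions of Abcg4 and Btnl10 overlapped, and within MP cells those of Abcg4, Sh3tc2 and Trim10 did. Per kilobase of annotated exon, Spon2 was the most abundant member in MP cells, at 20.1 ± 2.45 CPM per kb in polysomal RNA (SD, n = 3) and 12.9 ± 2.02 in total RNA (n = 2). Slc26a1 followed in polysomal RNA at 9.95 ± 0.684 CPM per kb. Trim10, Sh3tc2 and Abcg4 came next there at 7.18 ± 1.99, 6.88 ± 3.24 and 6.87 ± 5.67 CPM per kb, and these 3 neighbours in the order overlapped. In total RNA Abcg4, Trim10, Slc26a1, Sh3tc2 and Btnl10 followed Spon2, at 6.68 ± 3.57, 5.62 ± 2.46, 4.42 ± 1.02, 4.17 ± 0.823 and 3.30 ± 1.91 CPM per kb. Each of these overlapped the next in the order except Btnl10, which did not overlap Acsl6. Btnl10 was last in MP polysomal RNA at 1.27 ± 0.466 CPM per kb and Acsl6 last in MP total RNA at 1.19 ± 0.522 CPM per kb. Per kilobase of the longest coding transcript, Spon2 stayed first at 29.0 CPM per kb in polysomal and 18.6 in total RNA. The order of the others depended on the length used. With this length Abcg4 came next after Slc26a1 in MP polysomal RNA and overlapped it, and Btnl10 overlapped Acsl6 in MP total RNA.

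The comparison of polysomal with total RNA sets a message's scaled level in gradient fraction 7 against its scaled level in total RNA. Both levels are relative to the other messages, so the share of a message that sediments with ribosomes is not measured. The genes were not chosen on this comparison. It shares its libraries with that choice, and the low LSK total values of these genes enter both. By edgeR's quasi-likelihood test with Benjamini-Hochberg adjustment, 0 of 7 genes passed in MP cells, in LSK cells, over the mean of both populations or in the interaction, as did 0% of all 16426 tested genes in each of these comparisons and directions. DESeq2's Wald test, an alternative, called Spon2, Slc26a1 and Sh3tc2 in LSK cells and over the mean of both populations, and none of the 7 in MP cells or in the interaction, and limma on the authors' normalized table called 0. At an unadjusted p under 0.05, 4 of the 7 passed in LSK cells (Spon2, Sh3tc2, Slc26a1 and Trim10), where 12.1% of all genes did, and 2 of the 7 in MP cells (Btnl10 and Slc26a1), where 7.57% did. Over the mean of both populations 4 of the 7 passed (Spon2, Sh3tc2, Slc26a1 and Trim10), against 14.9% of all genes.

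In LSK cells the polysomal libraries held more of 5 of the 7 messages than either total library did. These were Spon2, Sh3tc2, Slc26a1, Trim10 and Acsl6, and 16.2% of all genes were likewise separated in this direction. Acsl6 was separated narrowly, by 0.664 CPM (16 counts) in LSK polysomal 2 over 0.642 CPM (22 counts) in LSK total 1. The log2 change of polysomal over total RNA was 3.08 (adjusted p = 0.222, SE 0.83) for Sh3tc2, number 62 of the 16426 tested genes from the largest increase. It was 2.45 (adjusted p = 0.212, SE 0.59) for Slc26a1 and 2.25 (adjusted p = 0.212, SE 0.52) for Spon2, numbers 156 and 223. Spon2 averaged 6.75 ± 0.738 CPM in LSK polysomal RNA and 1.42 ± 0.0999 CPM in LSK total RNA (SD, n = 2 each). For Trim10 the change was 1.63 (adjusted p = 0.351, SE 0.64), and for Acsl6 0.91 (adjusted p = 0.608, SE 0.63). The value for Sh3tc2 was 4.22 without LSK total 1, 2.45 without LSK total 2 and 2.25 without LSK polysomal 2. Without LSK polysomal 1, Acsl6 had 0.19 and Trim10 1.01. Abcg4 and Btnl10, whose LSK fractions overlapped, had 0.71 (adjusted p = 0.782, SE 0.87) and 0.013 (adjusted p = 0.996, SE 0.70). Abcg4 had 1.50 without LSK total 2. The sign for Btnl10 turned when libraries were scaled by their totals alone (−0.32) or with DESeq2 size factors (−0.021).

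In MP cells the polysomal libraries exceeded both total libraries for Slc26a1, Acsl6 and Spon2, 3 of the 7, where 16.3% of all genes were separated this way. Slc26a1 averaged 40.3 ± 2.77 CPM in MP polysomal RNA (SD, n = 3) and 17.9 ± 4.12 CPM in MP total RNA (n = 2), and its log2 change was 1.17 (adjusted p = 0.657, SE 0.52). The changes of Acsl6 and Spon2 were 0.79 (adjusted p = 0.801, SE 0.56) and 0.64 (adjusted p = 0.801, SE 0.46). These 3 genes were thus higher in every polysomal library of both populations, a pattern held by 2.91% of all genes. For Acsl6 this rests on a near tie at low counts in LSK cells. Btnl10 was the 1 member lower in all MP polysomal libraries, in a direction that 16.4% of all genes shared. It averaged 6.08 ± 2.24 CPM in MP polysomal RNA (n = 3) and 15.9 ± 9.17 CPM in MP total RNA (n = 2), and its log2 change was −1.38 (adjusted p = 0.656, SE 0.60). Without MP total 2 it was −0.61. Sh3tc2, Trim10 and Abcg4 overlapped between fractions, at 0.72 (adjusted p = 0.875, SE 0.71), 0.35 (adjusted p = 0.944, SE 0.56) and 0.042 (adjusted p = 1.000, SE 0.77). With library totals alone the value for Abcg4 was −0.11. Without MP polysomal 3 it was −0.86, without MP total 1 −0.41, and for Trim10 −0.031 without MP total 1.

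**Figure D2:**
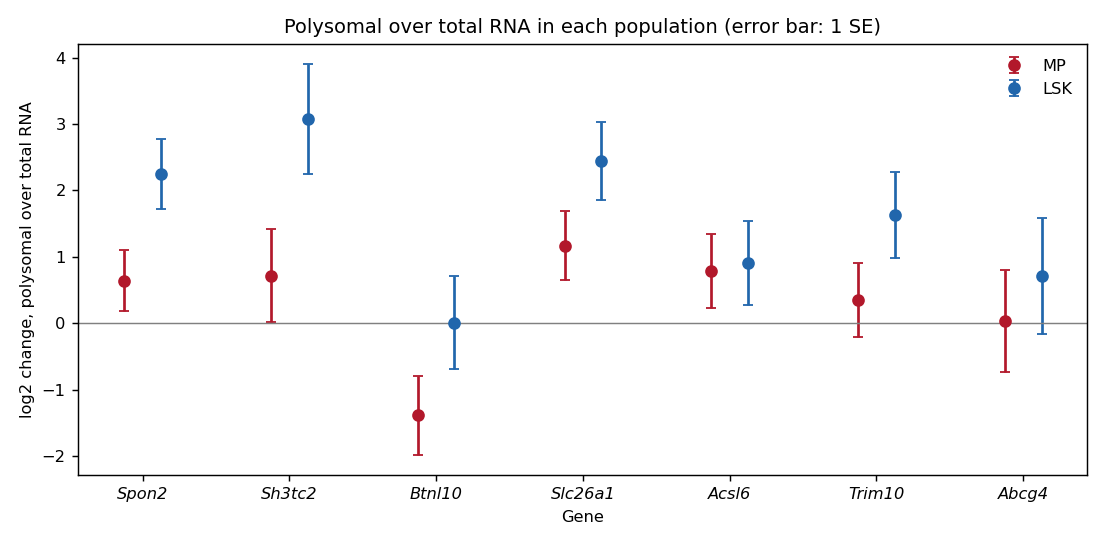
Log2 change of polysomal over total RNA for each gene in MP cells (left of each pair) and LSK cells (right), from the model fitted to all 9 libraries, with error bars of 1 SE. Sh3tc2, Slc26a1 and Spon2 have the highest values, in LSK cells, and Btnl10 in MP cells is lowest at −1.38.

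Over the mean of both populations, the polysomal over total change was 1.81 (adjusted p = 0.109, SE 0.39) for Slc26a1, 1.45 (adjusted p = 0.119, SE 0.35) for Spon2 and 1.90 (adjusted p = 0.148, SE 0.54) for Sh3tc2. By DESeq2's Wald test the adjusted p of these 3 was 0.000794, 0.00184 and 0.0183. Trim10, Acsl6, Abcg4 and Btnl10 had 0.99 (adjusted p = 0.318, SE 0.43), 0.85 (adjusted p = 0.386, SE 0.42), 0.38 (adjusted p = 0.825, SE 0.58) and −0.69 (adjusted p = 0.544, SE 0.47). The interaction, the polysomal over total change in MP minus that in LSK, was negative for all 7 genes, from −2.36 for Sh3tc2 to −0.12 for Acsl6, with a median of −1.28 where all tested genes had −0.10 and 53.1% of them were negative. For Acsl6 the sign turned to 0.060 with library totals alone. None passed (adjusted p = 0.877 to 0.986), and Spon2 and Sh3tc2 had an unadjusted p under 0.05, as did 5.29% of all genes. The interaction is also the MP over LSK change in polysomal RNA minus that in total RNA, on which the genes were chosen, so its sign is no independent result.

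Markers of several cell types moved with these comparisons, and their part in the results was not tested. The summed level of 31 erythroid markers was 11747 to 14024 CPM in MP polysomal and 8457 to 11634 in MP total RNA, against 3385 to 4453 in LSK polysomal and 2689.7 to 3203 in LSK total RNA. The 17 markers of granulocyte and monocyte progenitors summed to 39816 to 52331 CPM in MP polysomal and 33663 to 59728 in MP total RNA, against 10121 to 12595 in LSK polysomal and 5415 to 9046 in LSK total RNA. The 15 markers of maturing neutrophils reached 20823 CPM in MP polysomal 1 and 15487 CPM in MP total 1, against 609 to 1043 CPM in the other MP libraries and 511 to 2887 CPM in the LSK libraries. No marker of these 3 lists was at 0 in a group. The 13 megakaryocyte markers summed to 438 to 1086 CPM in MP polysomal and 446 to 792 in MP total RNA, against 1404 to 1829 in LSK polysomal and 921 to 1192 in LSK total RNA, with Gp6 at 0 in both LSK groups. Of 12 tested ones, 3 had a positive MP over LSK change in polysomal RNA (median −0.95, 0 higher and 2 lower). In total RNA 6 of 12 did (median 0.023, 0 higher and 1 lower). The 13 macrophage markers summed to 454 to 768 CPM in MP polysomal and 211 to 359 in MP total RNA, against 174 to 207 in LSK polysomal and 48.8 to 69.9 in LSK total RNA, with Timd4 at 0 in LSK total RNA. Most of the macrophage markers did not share the direction of their sum: 3 of 11 tested ones had a positive MP over LSK change in polysomal RNA (median −3.09, 1 higher and 4 lower) and 4 of 11 in total RNA (median −0.53, 2 higher and 0 lower). The 13 mast cell, basophil and eosinophil markers summed to 659 to 1082 CPM in MP polysomal and 389 to 594 in MP total RNA, against 171 to 443 in LSK polysomal and 153 to 293 in LSK total RNA, with Tpsab1 at 0 in both polysomal groups. Of 12 tested ones, 9 had a positive MP over LSK change in polysomal RNA (median 0.85, 0 higher and 1 lower). In total RNA 7 of 12 did (median 0.91, 0 higher and 0 lower). Lower in MP cells were the sums of 14 B cell markers, 157 to 362 CPM in MP polysomal and 169 to 328 in MP total RNA, against 907 to 3379 in LSK polysomal and 631 to 4800.0 in LSK total RNA, with Fcmr at 0 in MP polysomal RNA, and of 15 stem cell markers, 149 to 189 CPM in MP polysomal and 139 to 150.5 in MP total RNA, against 896 to 1346 in LSK polysomal and 1055 to 1147 in LSK total RNA. In LSK cells the polysomal over total change had a median of 2.17 over macrophage markers, 1.65 over maturing neutrophil markers and 0.50 over erythroid markers, against 1.63 over the 7 genes and 0.020 over all tested genes. In MP cells these medians were 0.68, −0.0051 and 0.14, against 0.64 and −0.085. Fewer genes had a count in polysomal than in total libraries, 17199 and 19088 against 23160 and 23657 in LSK cells and 18585 to 19426 against 20081 and 26046 in MP cells, which was not tested as a part of these differences. Ly6a, which encodes the sort marker Sca-1, had 0.159 to 1.26 CPM in the MP and 50.2 to 109.6 CPM in the LSK libraries, and Kit overlapped, at 493 to 1290.0 CPM in MP and 330.2 to 1595 CPM in LSK libraries.

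Likeness was the mean absolute difference of log2 CPM over the 9 libraries, with each gene centred on its own mean, among 9519 genes with at least 10 CPM in their highest group, whose median difference from a member was 1.74 to 2.13. Since the members were chosen for being high in MP and low in LSK cells, any other gene with that difference comes out near, and the measure is a description over libraries that may share sorts and differ in depth. The 3 nearest genes of each member gave 12 distinct genes, 5 of them on the erythroid list. That list holds 27 of the 9519 genes compared and 3 of the 7 whose MP over LSK change reached that of the lowest member in both fractions. Nearest to Spon2 were Slc38a5, an amino acid transporter gene (0.218), Cldn13, a claudin gene (0.362), and Rhd, a blood group antigen gene (0.381). Acsl6 lay nearest to Ermap, an erythroid membrane protein gene (0.207), Ank1, the red cell ankyrin gene (0.300), and Sh2d4a (0.365). For Trim10 they were Ank1 (0.248), Igsf3 (0.254) and Slc38a5 (0.316), and for Slc26a1 they were Slc38a5 (0.383), Rhd (0.409) and Pklr, the gene of the liver and red cell pyruvate kinase (0.435). Sh3tc2 had Pklr (0.531), Rhd (0.568) and Slc38a5 (0.589). Abcg4 had Sptb, the beta spectrin gene (0.477), Sphk1, a sphingosine kinase gene (0.548), and Cldn13 (0.561). Btnl10 had Smim1, which encodes a blood group protein (0.528), the matrix protease gene Mmp19 (0.582) and Ermap (0.590).

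Among themselves, Spon2 and Slc26a1 were the closest pair over the 9 libraries, at 0.299, and Sh3tc2 and Btnl10 the farthest at 1.20. Within the 5 MP libraries, with each gene centred on its mean there, Slc26a1 and Acsl6 were the closest pair at 0.169 and Btnl10 and Slc26a1 the farthest at 1.19. Within MP cells Btnl10 had values of 0.706 to 1.19 to the other members.

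**Figure D3:**
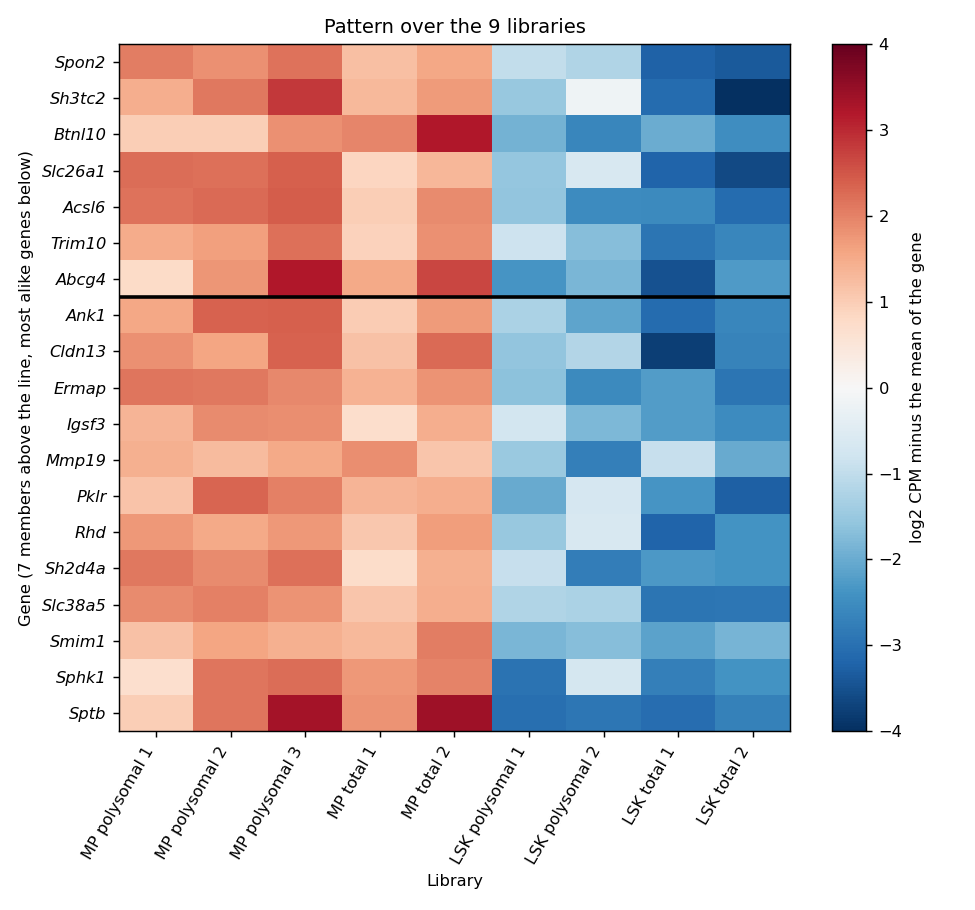
Log2 CPM of each gene minus its mean over the 9 libraries (colour; columns are libraries), for the 7 members above the line and the 12 genes most like them below it. For the 7 members each MP column is above the LSK columns of its fraction, and the LSK polysomal libraries lie above the LSK total libraries for Spon2, Sh3tc2, Slc26a1, Acsl6 and Trim10.

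Relatives and partners of the 7 genes were listed by family and function, with earlier results of these data known. Of 41 tested relatives on 7 lists, 1 was higher and 3 were lower in MP polysomal RNA, and 1 was higher and 2 were lower in MP total RNA, by edgeR's quasi-likelihood test at an adjusted p under 0.05. Of all tested genes, 0.524% were higher and 2.83% lower in polysomal RNA, and 0.274% higher and 0.816% lower in total RNA. The relatives' median log2 change was 0.32 in polysomal and 0.040 in total RNA. Their highest change was 5.22 in polysomal RNA, above that of every member, in a relative that did not pass, and 4.14 in total RNA. Ermap, the one higher relative and itself of the butyrophilin family, averaged 582 ± 46.2 CPM in MP polysomal RNA (SD, n = 3) and 34.3 ± 14.8 CPM in LSK polysomal RNA (n = 2), for a log2 change of 4.08 (adjusted p = 0.00941, SE 0.53). In total RNA its change was 4.14 (adjusted p = 0.0326, SE 0.55). Btnl9, the other butyrophilin-like gene above 1 CPM, had 0.54 in polysomal and 0.040 in total RNA and did not pass.

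Among transporters, the relatives that passed were lower in MP cells. Slc26a11, a lysosomal sulfate transporter gene, averaged 1.42 ± 0.296 CPM in MP polysomal RNA (SD, n = 3) and 26.8 ± 5.94 CPM in LSK polysomal RNA (n = 2), for a log2 change of −4.23 (adjusted p = 0.0101, SE 0.57), and −3.43 (adjusted p = 0.0454, SE 0.64) in total RNA. Slc26a2, the broadly expressed sulfate transporter gene, had 0.56 and −0.46 and did not pass. Abcg3 averaged 0.862 ± 0.170 CPM in MP and 14.4 ± 13.8 CPM in LSK polysomal RNA, with changes of −4.06 (adjusted p = 0.0210, SE 0.72) in polysomal and −4.92 (adjusted p = 0.0425, SE 0.89) in total RNA. Abcg1, the closest relative of Abcg4 and likewise a cholesterol exporter gene, averaged 15.7 ± 4.05 CPM in MP and 100.0 ± 29.0 CPM in LSK polysomal RNA, a change of −2.67 (adjusted p = 0.0354, SE 0.56). In total RNA its change was −1.23 (adjusted p = 0.356, SE 0.62), which did not pass, and the difference between fractions was not significant (interaction adjusted p = 0.877). Abcg2 had −0.037 and −0.50 and did not pass.

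None of the 5 tested acyl-CoA synthetase relatives passed. Acsl1 and Acsl5, 2 of these enzyme genes, had log2 changes of 1.91 (adjusted p = 0.0524, SE 0.45) and 1.12 (adjusted p = 0.381, SE 0.60) in polysomal RNA and 2.06 (adjusted p = 0.0696, SE 0.47) and 1.05 (adjusted p = 0.461, SE 0.64) in total RNA. Also without a passing member were 6 TRIM genes, among them Trim58, a red cell ubiquitin ligase gene, at 1.59 (adjusted p = 0.294, SE 0.72) and 0.89 (adjusted p = 0.610, SE 0.75). The same held for 8 spondin and integrin genes and for 8 genes of the SH3TC and Rab11 list, where Sh3tc1, the paralog of Sh3tc2, had 0.53 (adjusted p = 0.841, SE 0.96) and 1.92 (adjusted p = 0.410, SE 1.07). Of 6 other cholesterol export genes Abcg1 alone passed, in polysomal RNA, and of 5 tested sulfate uptake and activation genes none did, with Papss2, a sulfate activation enzyme gene, at 3.11 (adjusted p = 0.0867, SE 0.86) and 1.91 (adjusted p = 0.292, SE 0.85). Of 10 erythroid transcription factor genes none passed in either fraction, with medians of 0.39 and 0.33, while of 31 tested erythroid markers 13 were higher in polysomal and 9 in total RNA, where 0.524% and 0.274% of all genes were. No gene of any kind was called higher in polysomal RNA without MP polysomal 1 or 2, while 2 genes were without MP polysomal 3 and 6 without LSK polysomal 2. In total RNA no gene was called higher without any 1 of the total or MP polysomal libraries or with the compared groups alone. Leaving out any of the 4 total or 3 MP polysomal libraries ended the total RNA calls of Ermap, Abcg3 and Slc26a11 (adjusted p = 0.0595 to 0.313). In polysomal RNA the call of Ermap was lost without MP polysomal 1 or 2 (0.0512 to 0.0716), and that of Slc26a11 without MP polysomal 1, 2 or 3 (0.0558 to 0.0832). The call of Abcg3 was lost without LSK polysomal 1 or any MP polysomal library (0.0593 to 0.110), and that of Abcg1 without any polysomal or MP total library (0.0549 to 0.148). With only the compared groups fitted, the total RNA calls (adjusted p = 0.133 for each) and those of Abcg1 and Abcg3 in polysomal RNA (0.0549 and 0.0516) were lost, and with the replicate number as a block that of Abcg1 in polysomal RNA was lost (adjusted p = 0.0712).

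**Figure D4:**
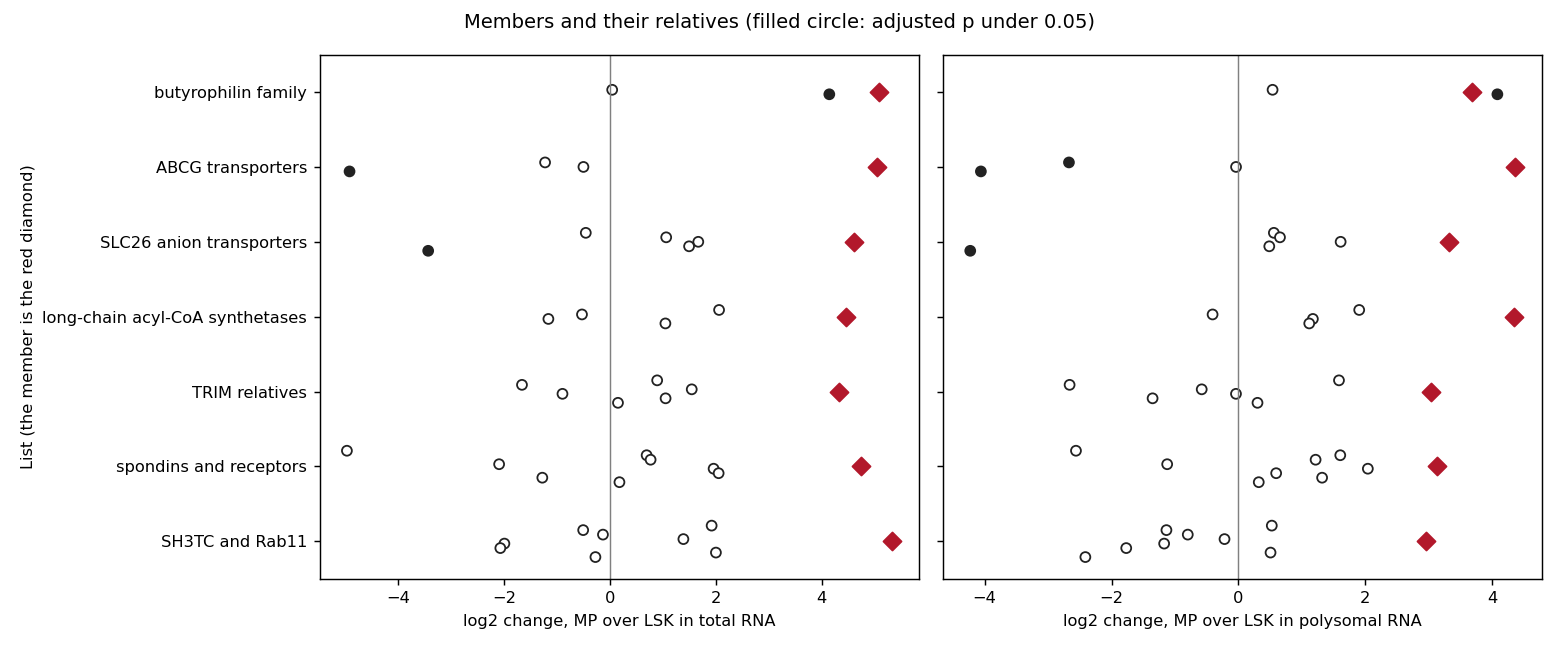
Log2 change of MP over LSK in total RNA (left) and polysomal RNA (right) for each member (red diamond) and its relatives with a mean of at least 1 CPM in some group (circles, filled at an adjusted p under 0.05; the vertical offset within a row has no meaning). In each row but the butyrophilin row of polysomal RNA, where Ermap lies beyond Btnl10, the member is the rightmost symbol, as it was chosen to be high.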

How the data were processed

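RNA was measured by sequencing in 9 libraries, grouped by their titles. Per the labels' protocols, Trizol was used for extraction and a SMARTer kit for amplification. The authors deposited counts without normalization, by gene symbol, with library totals of 27342343 to 34807735. Tools named in the submitters' processing notes are STAR, featureCounts, bcl2fastq and DESeq2, with the builds mm10 and GRCm38, and with no versions. They also deposited a normalized table on a log2-like scale whose transformation is not given in the sources used here, used only as an alternative with limma 3.58.1.

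The analysis used edgeR 4.0.16 in R 4.3.3. The filterByExpr function (minimum count 10, minimum total 15) left 16426 genes, among them all 7 members, and libraries were scaled by TMM. The quasi-likelihood fit took all 9 libraries and 1 coefficient for each group, with 5 residual and 4.58 prior degrees of freedom, and Benjamini-Hochberg adjustment of two-sided p-values ran over all genes, with a threshold of 0.05. The median biological coefficient of variation was 0.558. Exact permutation tests of single values cannot reach 0.05 at these group sizes and are not given. The procedure was tested on simulated data. Alternatives were DESeq2 1.42.0, other scalings, no filter, other sample sets, a replicate block and leaving out each library.

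The members and lists were chosen with earlier results of these data known. Named are the members, relatives on the lists with a mean of at least 1 CPM in some group, genes that overlap a member, the 3 genes most alike to each and 2 sort markers. Klf1 and Gata1 are on a list. Promoter windows are from RefSeq on GRCm38.p6, matched by symbol for 4 of 7 genes. Other sequences were not used here. 1 item of a marker list is not reported here, and the list's values are computed without it.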

Additional observations from a re-analysis of the deposited data

How the results depend on the processing

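The members' MP over LSK changes kept their sign under every alternative run. Their median in polysomal RNA ranged from 3.26 to 3.81 with a library left out and was 3.80 without both LSK libraries numbered 2. With the authors' normalized table the median was lower, at 2.91 in polysomal and 3.60 in total RNA. For polysomal over total RNA, DESeq2 called 3 members in LSK and 3 over the mean of both populations, and with no filter on low counts 1 was called in each, Sh3tc2. Over all genes, in the order MP, LSK, mean and interaction, DESeq2 called 30, 433, 765 and 1 and the fit with no filter 22, 547, 843 and 4. The normalized table gave 486 in LSK and 462 for the mean, and leaving out a library 0 to 1 for the mean. For MP over LSK, where 551 genes passed in polysomal and 179 (45 higher, 134 lower) in total RNA, DESeq2 gave 1624 and 1471, no filter 1558 and 1206, the compared groups alone 304 and 0, and leaving out a library 0 to 516 and 0 to 446. The polysomal count was 0 without MP polysomal 1 or 2, 25 without MP polysomal 3 and 203 without LSK polysomal 2. The total RNA count was 0 without any total or MP polysomal library, 400 without LSK polysomal 1 and 446 without LSK polysomal 2. Total RNA had 328 with library totals alone (43 higher, 285 lower) and 850 with the normalized table. Without both MP libraries numbered 1, where maturing neutrophil transcripts are high, both counts were 0, and without both LSK libraries numbered 2, where B cell transcripts are high, polysomal RNA had 197. Both of these were chosen after seeing the data. The cause of these moves was not tested. Library totals alone put the median log2 change of all genes at −0.22 in MP and −0.36 in LSK for polysomal over total RNA and at −0.14 and −0.36 for MP over LSK in polysomal and total RNA. Fitting the compared groups alone gives no value for the mean or the interaction.

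With the replicate number as a block, 1 gene passed over the mean of both populations and 570 for MP over LSK in total RNA, no member passed for polysomal over total RNA, the polysomal call of Abcg1 was lost (adjusted p = 0.0712), and Abcg4 turned to −0.84 in MP and −0.0068 over the mean. The block leaves MP polysomal 3 without a partner, so that library is fitted by a term of its own. It then adds nothing to the MP polysomal values, which rest on MP polysomal 1 and 2. Leaving out MP polysomal 3 with no block gave −0.86 for Abcg4 in MP, so the turn with the block is not an effect of pairing alone. Deviations of same-numbered libraries from their group means correlated at 0.25 to 0.62 across genes in 9 of 12 pairs and at −0.37 to −0.058 in 3, all of them with MP polysomal 2. In groups of 2 libraries the deviations mirror each other, so several of these pairs repeat the same value and are not separate evidence. MP polysomal 3 correlated with the libraries numbered 2 of LSK polysomal (0.57), LSK total (0.58) and MP total RNA (0.61). With the libraries numbered 1 it gave the same values with a negative sign. The libraries thus hold a shared pattern that the numbers follow only in part, with MP polysomal 3 like the libraries numbered 2. No label ties the numbers to a shared source. The main fit takes no account of this pattern, and the block does not place MP polysomal 3 with those libraries.

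Of 490 refits of the members' polysomal over total changes and interactions, 461 kept direction and side of the threshold, 8 passed newly and 21 turned. For Btnl10 in LSK the values that turned were −0.021 with DESeq2 size factors, −0.32 with library totals, −0.014 with DESeq2 and −0.035 with the normalized table. With a library left out it ranged from −0.60 to 0.38. For Abcg4 in MP the values that turned were −0.11 with library totals, −0.18 with the normalized table and −0.051 without both MP libraries numbered 1. With a library left out it ranged from −0.86 to 0.74. Left-out libraries also turned Abcg4 over the mean (−0.074 to 0.78) and in the interaction (−1.57 to 0.014), Trim10 in MP (−0.031 to 0.90) and Acsl6 in the interaction (−0.53 to 0.63). The last was 0.060 with library totals and 0.37 with the normalized table. Where a left-out library leaves 1 in its group, that library is assumed to vary like the other groups. The members' LSK values rest on 8 to 219 counts per library, which limits how small a difference between fractions can be seen there.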
